A study of Mus musculus with 8 samples.

Results

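Genes subject to genomic imprinting are read mainly or only from either the maternal or the paternal copy. They were followed in ribosome-bound RNA of Otp-lineage cells from mice with a floxed Cic gene and from Control mice. The list held 44 mouse imprinted genes, matched by symbol in the deposited tables. All 44 were found among 24421 gene rows, and 41 passed the filter on low counts. From knowledge of mouse imprinting, 24 were classed as paternally expressed, 17 as maternally expressed, and 3 (Gnas, Grb10 and Inpp5f) as dependent on isoform or tissue. The paternal and maternal classes were not checked in these cells, and imprinting of their members can also depend on tissue. The KO group was 4 libraries from C57BL/6 mice with the genotype Otp-Cre; Cicflox/flox; ROSAfsTRAP, and the Control group was 4 libraries from C57BL/6 mice with Otp-Cre; ROSAfsTRAP, for which the labels list no floxed Cic allele. Otp-Cre acts in cells that express, or descend from cells that expressed, the homeobox gene Otp, and the ROSAfsTRAP allele then tags their ribosomes so that bound RNA can be purified (translating ribosome affinity purification, TRAP). Hypothalamus and medial amygdala were dissected together, and the labels state neither age nor whether animals were pooled. Because Controls lacked the floxed allele, its presence and its recombination cannot be told apart.

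Many imprinted genes lie in clusters, each governed by a control region whose DNA methylation is set in the egg or the sperm and kept through development. Paternally expressed members include Peg3, Ndn, Magel2, Mest and Dlk1, several of which are abundant in the hypothalamus and known from mouse mutants for effects on feeding, growth and maternal care. Maternally expressed members include growth-restraining genes such as Cdkn1c, noncoding RNAs such as Meg3, and the ubiquitin ligase gene Ube3a, whose maternal copy is the active one in neurons. The counts joined both parental alleles, so they give the total level of each gene and not the allele it came from.

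The libraries held 33223878 to 49587839 gene counts in KO and 38171319 to 57300362 in Control. Every library had reads of the Y-linked gene Ddx3y (886 to 2239 in KO, 1232 to 2128 in Control) and few of Xist (68 to 136 in KO, 54 to 81 in Control). The ERCC spike-in RNAs made up 0.0655%, 0.0569% and 0.0739% of gene counts in KO replicates 1, 2 and 4, against 0.395% in KO replicate 3 and 0.299% to 0.522% in Control. This difference runs with the groups apart from KO replicate 3, and its part in the results was not tested. Cic itself, the target of the deletion, measured 44.8, 34.5, 59.2 and 37.5 CPM (counts scaled to a common library size with TMM factors) in KO replicates 1 to 4, against 103, 72.3, 101 and 100.5 CPM in Control. The groups did not overlap (log2 fold change -1.10, SE 0.21, edgeR quasi-likelihood test, adjusted p = 0.00220). Otp was present at 2.69 to 8.55 CPM in KO, against 2.28 to 5.01 CPM in Control. Markers of glia were also present in every library, as set out with the marker lists. In RNA purified from a mix of cells, fewer cells of a type, less RNA per cell and a difference in purification cannot be told apart. No library is labelled as RNA from before the purification.

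Of the 41 imprinted genes tested, 1 rose in KO, Plagl1, 0 fell and 40 did not pass an edgeR adjusted p of 0.05, adjusted over all 15438 genes tested. Over all genes 0.194% were called higher and 0.0648% lower. The direction of the fold changes was uneven: 35 of the 41 were positive (53.8% of all genes were) and 6 were negative, namely Dio3, Meg3, Zim1, Igf2r, Snrpn and Inpp5f. At an unadjusted edgeR p of at most 0.05, 10 imprinted genes were higher in KO (6.06% of all genes) and 0 were lower (4.53% of all genes). The median log2 fold change was 0.21 over the imprinted genes and 0.02 over all genes. Every KO library lay above every Control library for 4 genes, Plagl1, Mest, Mcts2 and Ndn (3.01% of all genes), and the reverse held for 0 (2.91% of all genes). In either direction, groups free of overlap made up 5.93% of all genes.

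**Figure D1:**
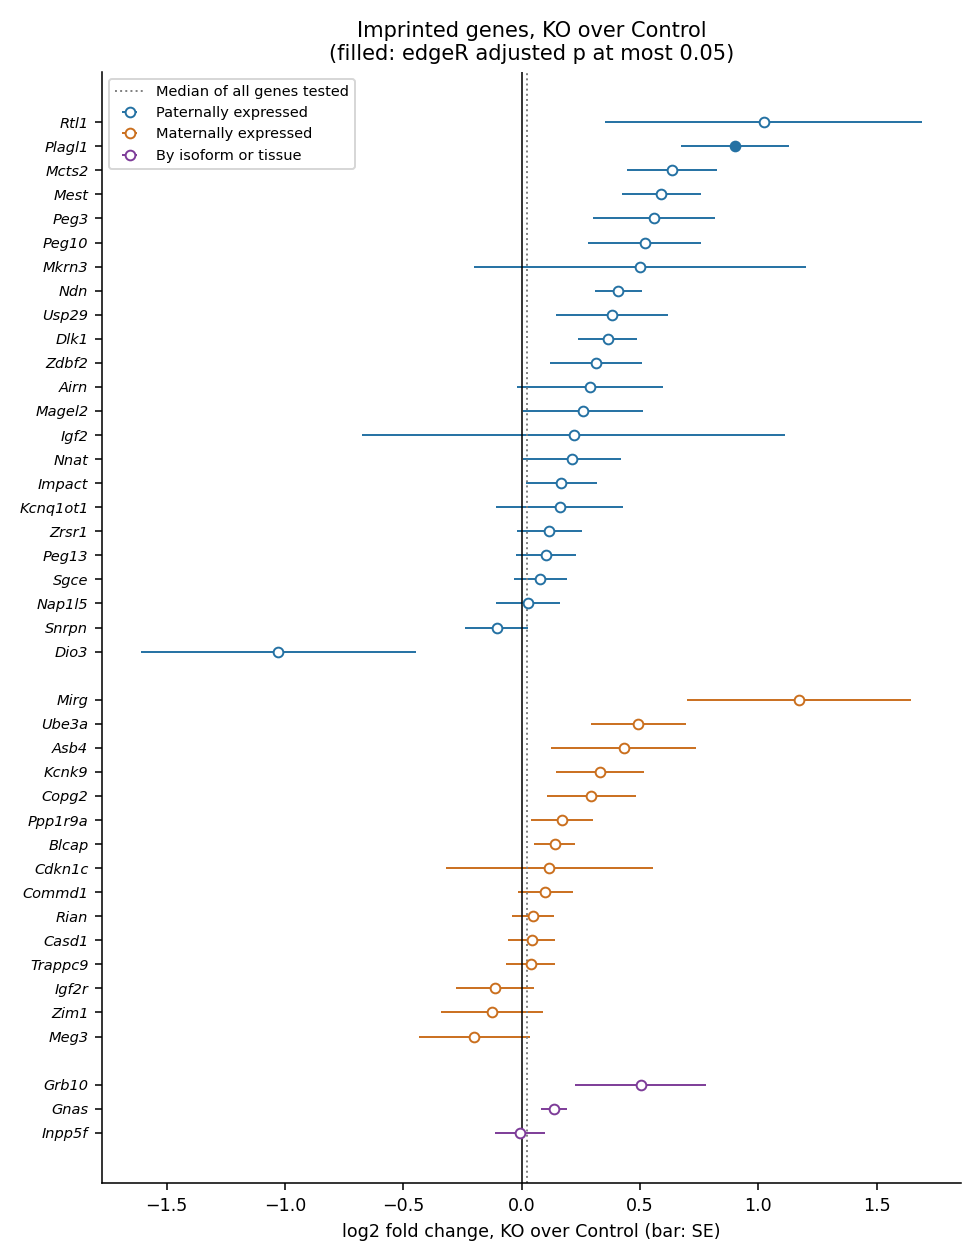
Log2 fold change (KO over Control, horizontal axis) of the 41 imprinted genes tested, grouped by parental expression, with bars of 1 SE from 4 libraries a group. Plagl1 is the filled point, at 0.90, and 35 of the 41 points lie right of 0.

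Plagl1 encodes a zinc finger transcription factor, also called Zac1, that slows cell growth and acts on other imprinted genes in mouse. It had 58.6, 30.3, 56.7 and 46.4 CPM in KO replicates 1 to 4, against 28.7, 24.97, 26.2 and 22.9 CPM in Control replicates 1 to 4. KO replicate 2, the lowest of its group, lay just above the highest Control library. The means were 48.0 ± 12.9 CPM in KO and 25.7 ± 2.44 CPM in Control (SD, n = 4 each), a 1.87-fold rise (edgeR adjusted p = 0.0238, log2 fold change 0.90, SE 0.23). The call was lost without KO replicate 1 (edgeR adjusted p = 0.0811), KO replicate 3 (0.0836), Control replicate 2 (0.114), Control replicate 3 (0.0751) or Control replicate 4 (0.146), at log2 fold changes of 0.78 to 0.91. Plagl1 (ENSMUSG00000019817.18) occupies 13060504 to 13131694 of chromosome 10 in GRCm38, plus strand, and no other gene of the tables overlaps it.

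The region around a transcription start is shown for the 4 genes whose groups did not overlap and for Peg3, which holds the PLAGL1 word. These are RefSeq windows on GRCm38.p6 of 250 bases before and 50 after a start, written 5′ to 3′ along the gene. Capitals mark TGCCGC or its reverse complement GCGGCA, the hexamer bound by ZFP57 when methylated, and GGGGCCCC, a core word of PLAGL1 binding.
Plagl1, chr10:13090582-13090881, plus strand: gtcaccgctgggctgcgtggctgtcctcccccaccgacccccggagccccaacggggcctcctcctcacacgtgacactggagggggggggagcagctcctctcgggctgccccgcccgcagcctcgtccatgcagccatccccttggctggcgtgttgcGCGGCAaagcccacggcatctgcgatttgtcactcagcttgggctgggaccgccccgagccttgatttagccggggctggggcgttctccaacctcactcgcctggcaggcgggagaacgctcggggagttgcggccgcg
Mest, chr6:30737800-30738099, plus strand: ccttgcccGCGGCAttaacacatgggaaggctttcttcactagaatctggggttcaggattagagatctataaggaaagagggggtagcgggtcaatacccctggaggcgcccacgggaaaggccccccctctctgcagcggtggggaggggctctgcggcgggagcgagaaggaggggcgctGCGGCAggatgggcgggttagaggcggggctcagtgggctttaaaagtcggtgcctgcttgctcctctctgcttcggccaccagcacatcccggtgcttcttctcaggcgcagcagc
Mcts2, chr2:152686898-152687197, plus strand: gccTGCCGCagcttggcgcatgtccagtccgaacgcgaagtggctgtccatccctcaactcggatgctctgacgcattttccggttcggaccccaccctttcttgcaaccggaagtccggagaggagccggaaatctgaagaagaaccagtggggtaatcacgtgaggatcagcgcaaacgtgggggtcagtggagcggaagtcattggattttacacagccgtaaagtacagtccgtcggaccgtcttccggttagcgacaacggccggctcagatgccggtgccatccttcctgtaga
Ndn, chr7:62348027-62348326, plus strand: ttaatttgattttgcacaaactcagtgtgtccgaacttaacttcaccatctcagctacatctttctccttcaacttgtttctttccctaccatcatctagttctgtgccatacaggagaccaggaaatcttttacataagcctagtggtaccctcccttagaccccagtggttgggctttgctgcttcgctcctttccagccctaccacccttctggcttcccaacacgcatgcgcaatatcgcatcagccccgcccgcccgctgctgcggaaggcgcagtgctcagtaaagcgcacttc
Peg3, chr7:6730370-6730669, minus strand: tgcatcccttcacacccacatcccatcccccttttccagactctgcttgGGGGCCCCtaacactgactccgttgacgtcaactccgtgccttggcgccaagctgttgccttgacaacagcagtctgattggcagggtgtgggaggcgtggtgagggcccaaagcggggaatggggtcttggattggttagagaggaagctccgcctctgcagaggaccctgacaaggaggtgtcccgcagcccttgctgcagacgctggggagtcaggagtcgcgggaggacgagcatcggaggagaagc
The hexamer stood in the windows shown for Plagl1, Mest and Mcts2 and not in those shown for Ndn and Peg3. A further Mest window, starting at 30737803, overlaps almost all of the window shown. It holds the same copies of the hexamer, at 30737808 to 30737813 and 30737983 to 30737988. The Mest window starting at 30733256 did not hold the hexamer. RefSeq windows existed for 35 of the 44 genes, some with several. Of the 35, 14 (40.0%) held the hexamer on either strand in at least 1 window, against 3527 of 27025 genes (13.1%) in the whole table. Counted by window, the hexamer was in 15 of 53 (28.3%), against 3813 of 32851 windows (11.6%) in the whole table. Both overlapping Mest windows are in that count. By parental expression it was in 8 of 19 paternally and 5 of 13 maternally expressed genes. GGGGCCCC, which reads the same on both strands, was in windows of Peg3, Usp29 and Ppp1r9a, 3 of 35 genes against 338 of 27025 (1.25%). The windows of Peg3 and Usp29, which are transcribed away from each other, overlap and share 1 copy of the word, at 6730613 to 6730620 on chromosome 7. The Capicua words TGAATGAA, TGAATGGA, TCAATGAA and TCAATGGA, searched on both strands, were in 0 of the 35 genes, against 1203 of 27025 (4.45%). A window without a word says only that these letters are not in it.

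Mest, Mcts2 and Ndn lay above all Control libraries in each KO library without passing the test over all genes. Mest, which encodes a protein of the alpha/beta hydrolase fold, had 55.7, 86.8, 59.8 and 77.4 CPM in KO replicates 1 to 4, against 49.0, 41.3, 50.9 and 44.6 CPM in Control. KO replicates 2 and 4 were the highest. The means were 69.9 ± 14.7 CPM in KO and 46.4 ± 4.33 CPM in Control (n = 4 each, edgeR adjusted p = 0.0965, log2 fold change 0.59, SE 0.17). Mest (ENSMUSG00000051855.15) occupies 30723547 to 30748465 of chromosome 6, plus strand, and its end overlaps 912 bases of Copg2 exons on the opposite strand.

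Mcts2 is a retrocopy of the translation factor gene Mcts1 that sits inside an intron of H13. It had 20.1, 21.02, 31.4 and 27.8 CPM in KO replicates 1 to 4, against 15.6, 13.8, 15.5 and 19.8 CPM in Control. The lowest KO library and the highest Control library were close to each other. The means were 25.1 ± 5.42 CPM in KO and 16.2 ± 2.57 CPM in Control (n = 4 each, edgeR adjusted p = 0.146, log2 fold change 0.63, SE 0.19). The host gene H13, on the same strand, had 54.9 ± 9.75 CPM in KO and 46.8 ± 5.95 CPM in Control (edgeR adjusted p = 0.605, log2 fold change 0.23). Reads that match Mcts1 equally well can be lost or misplaced, so the level of this copy is uncertain.

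Ndn encodes necdin, a MAGE family protein of neurons after their last division. It had 364, 322, 312 and 335 CPM in KO replicates 1 to 4, against 244, 258, 288 and 215 CPM in Control. All 4 KO values stood above the highest Control value, replicate 3. The means were 333 ± 22.6 CPM in KO and 251 ± 30.5 CPM in Control (n = 4 each, edgeR adjusted p = 0.187, log2 fold change 0.41, SE 0.10). With the DESeq2 Wald test these 3 genes passed over all genes, at adjusted p = 0.0152 for Mest (0.0152 to 0.349 over its alternatives), 0.0396 for Mcts2 (0.0396 to 0.452) and 0.0426 for Ndn (0.0426 to 0.538). DESeq2 called 200 genes in all, against 40 by edgeR.

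**Figure D2:**
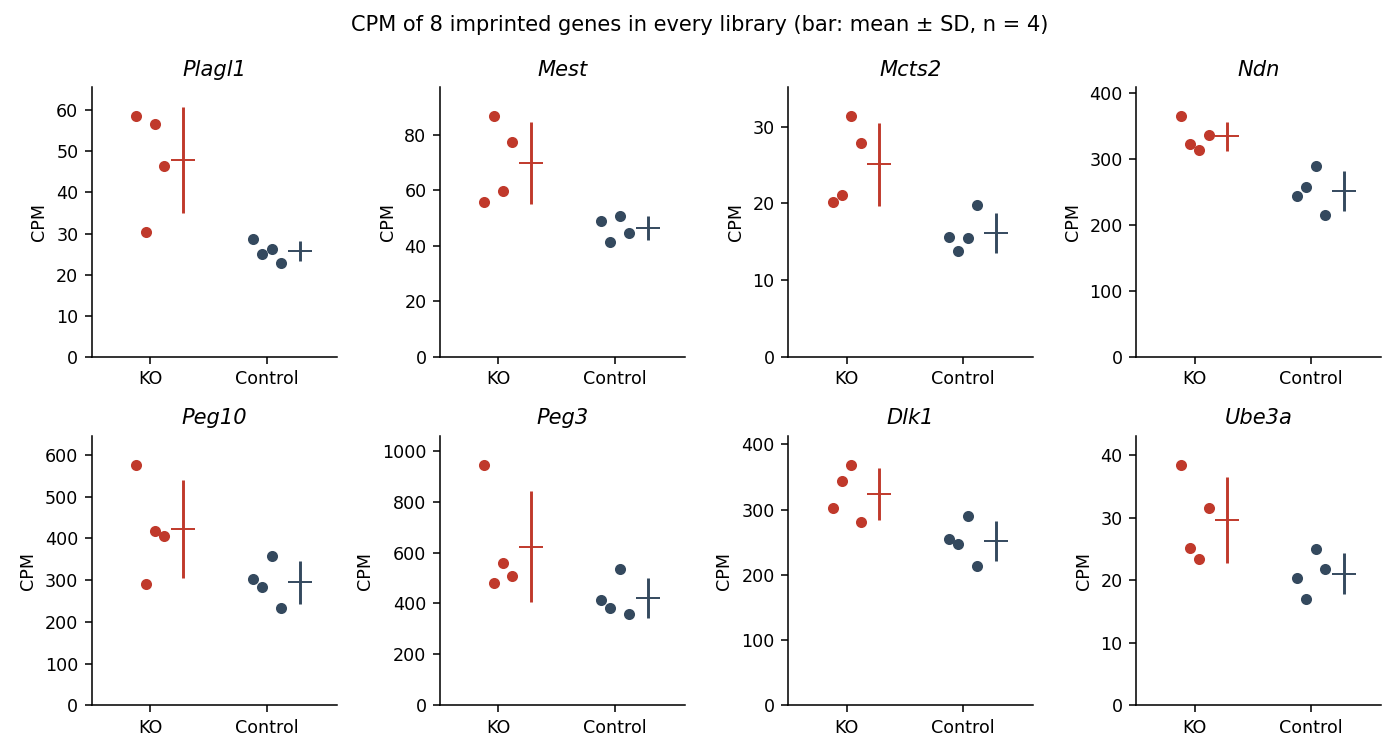
CPM (vertical axis) of the 8 imprinted genes of smallest edgeR p in the 4 KO and 4 Control libraries, with the mean and SD beside the points. In Plagl1, Mest, Mcts2 and Ndn every KO point lies above every Control point, whereas Peg10, Peg3, Dlk1 and Ube3a overlap, with KO replicate 1 at 576 CPM for Peg10 and 945 CPM for Peg3.

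The other members of the Prader-Willi and Angelman region on chromosome 7, where Ndn lies, did not pass. Magel2, another MAGE gene and a cofactor of ubiquitin ligases, had 19.1 ± 4.22 CPM in KO and 16.0 ± 3.80 CPM in Control (edgeR adjusted p = 0.707, log2 fold change 0.26). Its lowest library was Control replicate 4, at 10.3 CPM, and without that library the log2 fold change was 0.10. Mkrn3, a RING finger gene that restrains puberty in humans, was near the limit of detection at 0.268 to 1.93 CPM in KO, against 0.238 to 0.850 CPM in Control. Peg12 was below the filter, with 6, 0, 1 and 0 counts in KO and 22, 7, 2 and 4 counts in Control. Snrpn, which encodes the neuronal splicing protein SmN, had 2.55 ± 0.451 CPM in KO and 2.74 ± 0.190 CPM in Control (edgeR adjusted p = 0.940, log2 fold change -0.11). Snrpn shares exons with Snurf on the same strand, whose own row held at most 0.0235 CPM in any library, and how reads common to both were assigned is not stated, so the Snrpn level is uncertain. Ube3a, the maternally expressed ubiquitin ligase gene of the region, had 38.5, 25.1, 23.4 and 31.6 CPM in KO, against 20.4, 16.998, 25.1 and 21.8 CPM in Control. KO replicate 3 lay below Control replicate 3, so the groups overlapped (edgeR adjusted p = 0.280, log2 fold change 0.49, SE 0.20). Its antisense RNA Snhg14, which silences the paternal copy in neurons, had 3.14 ± 0.908 CPM in KO and 2.42 ± 0.514 CPM in Control (edgeR adjusted p = 0.743, log2 fold change 0.38). The counting is not stated to use strand, so reads of Ube3a and Snhg14 cannot be told apart where they overlap.

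In the Peg3 domain, 18.3 to 18.57 Mb from Cic on chromosome 7, the paternally expressed pair was on the positive side and the maternally expressed gene on the negative side, and none passed. Peg3, a zinc finger gene whose loss in mouse alters maternal care, had 945, 479, 559 and 508 CPM in KO replicates 1 to 4, against 415, 380.4, 536 and 359.9 CPM in Control. KO replicate 1 stood far above the other 7 libraries, and Control replicate 3 lay above KO replicates 2 and 4 (edgeR adjusted p = 0.294, log2 fold change 0.56, SE 0.26). Without KO replicate 1 the Peg3 log2 fold change was 0.28, and that of Usp29 was 0.20. Usp29, of the ubiquitin-specific protease family, had 144 ± 35.8 CPM in KO and 111 ± 24.7 CPM in Control (edgeR adjusted p = 0.432, log2 fold change 0.38), again with KO replicate 1 highest at 194 CPM. Zim1, a maternally expressed zinc finger gene, had 19.3 ± 3.28 CPM in KO and 21.1 ± 4.77 CPM in Control (edgeR adjusted p = 0.866, log2 fold change -0.13). Of the 44 genes, 15 lie on chromosome 7 with Cic, and for these the deletion and any linked DNA that came with the floxed allele cannot be told apart. Plagl1, Mest and Mcts2 lie on other chromosomes.

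The Dlk1-Dio3 domain on chromosome 12 had members on both sides of 0. Dlk1, a membrane protein related to Notch ligands, had 303, 343, 369 and 281 CPM in KO replicates 1 to 4, against 255, 248, 290.2 and 214 CPM in Control. Only KO replicate 4 lay below the highest Control library, replicate 3 (edgeR adjusted p = 0.292, log2 fold change 0.36, SE 0.13). Meg3, a maternally expressed long noncoding RNA whose locus restrains Dlk1, had 95.8, 171, 172 and 169 CPM in KO, against 202, 188, 145 and 162 CPM in Control. KO replicate 1 was far below the other 3 KO libraries, which lay inside the Control range (edgeR adjusted p = 0.734, log2 fold change -0.20, SE 0.23). Rian, a noncoding RNA that hosts small nucleolar RNAs, had 79.3 ± 6.93 CPM in KO and 76.6 ± 6.68 CPM in Control (edgeR adjusted p = 0.927, log2 fold change 0.05). Mirg, which hosts microRNAs, was low at 0.554 to 2.13 CPM in KO, against 0.313 to 0.701 CPM in Control (edgeR adjusted p = 0.497, log2 fold change 1.17, SE 0.47). Rtl1, derived from a retrotransposon, was as low at 0.400 to 2.65 CPM in KO, against 0.470 to 1.24 CPM in Control (edgeR adjusted p = 0.552, log2 fold change 1.02, SE 0.67). Dio3, the deiodinase that inactivates thyroid hormone, held 7, 4, 14 and 2 counts in KO and 19, 12, 7 and 24 counts in Control (edgeR adjusted p = 0.713, log2 fold change -1.03, SE 0.58). These last 3 genes have the widest errors of the domain and the lowest counts.

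In the Peg10-Sgce cluster on chromosome 6 all 5 genes were positive, between 0.04 and 0.52, and none passed. Peg10, another gene of retrotransposon origin, had 576, 291, 417 and 404.5 CPM in KO replicates 1 to 4, against 303, 283, 358 and 234 CPM in Control. KO replicate 2 was within the Control range and KO replicate 1 above all others (edgeR adjusted p = 0.256, log2 fold change 0.52, SE 0.24). Sgce, the epsilon-sarcoglycan gene that starts next to Peg10 on the opposite strand, had 43.8 ± 5.97 CPM in KO and 41.4 ± 2.58 CPM in Control (edgeR adjusted p = 0.889, log2 fold change 0.08), and the difference between these neighbours was not tested. The maternally expressed Asb4, a SOCS box gene of hypothalamic neurons, was at 0.43 with KO replicate 1 high at 72.7 CPM, against 39.0 to 45.1 CPM in the other KO libraries and 22.8 to 48.2 CPM in Control. Without KO replicate 1 the log2 fold change was 0.32 for Peg10 and 0.18 for Asb4, and without Control replicate 4 it was 0.26 for Asb4. Ppp1r9a (neurabin 1, an actin-binding synaptic protein) was at 0.17 and Casd1 (a sialic acid O-acetyltransferase) at 0.04. Copg2, the coatomer gene that overlaps Mest, had 66.4 ± 13.7 CPM in KO and 54.2 ± 7.95 CPM in Control (edgeR adjusted p = 0.502, log2 fold change 0.29).

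Growth and signalling genes of the Igf2 and Kcnq1 region gave no change past the test. Igf2, the insulin-like growth factor gene, varied most within groups, with 8.74, 16.3, 29.6 and 39.1 CPM in KO replicates 1 to 4, against 34.2, 9.07, 3.995 and 32.7 CPM in Control (edgeR adjusted p = 0.957, log2 fold change 0.22, SE 0.89). In brain Igf2 is known from choroid plexus and meninges. Among the markers of those tissues, the ones named here were chosen after their values were seen, and they ordered the libraries differently. Dcn, a meningeal fibroblast gene, had 1.17, 4.22, 4.75 and 11.9 CPM in KO replicates 1 to 4, against 8.40, 1.76, 3.81 and 7.54 CPM in Control. In each group Dcn was highest where Igf2 was highest. Col1a1, of the same marker list, had 0.103, 0.390, 1.14 and 2.62 CPM in KO, against 2.19, 0.658, 0.556 and 2.46 CPM in Control. Col1a1 ordered the KO libraries as Igf2 did and was likewise high in Control replicates 1 and 4. The choroid plexus gene Ttr had 19.5, 176, 50.2 and 125 CPM in KO, against 3.83, 60.0, 4.21 and 518 CPM in Control, low in Control replicate 1 where Igf2 was high. Kl, another choroid plexus gene, had 8.65, 8.49, 6.80 and 5.94 CPM in KO, against 3.99, 7.64, 5.21 and 10.9 CPM in Control, lowest in KO where Igf2 was highest. The 10 choroid plexus and meningeal markers summed to 40.4 to 205 CPM in KO, against 20.3 to 563 CPM in Control, with 3 positive and 7 negative and none at 0. Their part in the Igf2 values was not tested. H19, the maternally expressed noncoding RNA beside Igf2, had 0, 0, 1 and 0 counts in KO and 0, 0, 1 and 1 counts in Control, and Phlda2 had 0 in all 8 libraries. Cdkn1c, a cyclin-dependent kinase inhibitor, had 3.56 ± 0.793 CPM in KO and 3.27 ± 1.40 CPM in Control (edgeR adjusted p = 0.943, log2 fold change 0.12). The antisense RNA Kcnq1ot1 had 6.34 ± 2.10 CPM in KO and 5.67 ± 1.07 CPM in Control (edgeR adjusted p = 0.885, log2 fold change 0.16).

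Of the 3 genes classed by isoform or tissue, Grb10 was the most different. Grb10 encodes an adaptor that dampens insulin signalling and is paternal in mouse neurons but maternal in most other mouse tissues. It had 180, 105, 149 and 80.5 CPM in KO, against 83.6, 98.04, 105 and 77.0 CPM in Control. KO replicates 1 and 3 stood apart, replicate 2 was level with the highest Control library and replicate 4 lay inside the Control range (edgeR adjusted p = 0.356, log2 fold change 0.50, SE 0.28). Without KO replicate 1 the Grb10 log2 fold change was 0.29, and with the glial and vascular marker covariate it was 0.14. Gnas, which encodes the stimulatory G protein alpha subunit and other products by start site, had 3859 ± 258 CPM in KO and 3511 ± 118 CPM in Control (edgeR adjusted p = 0.732, log2 fold change 0.14). Inpp5f, an inositol phosphatase gene of which a brain isoform is paternal, had 539 ± 70.5 CPM in KO and 542 ± 37.1 CPM in Control (edgeR adjusted p = 0.989, log2 fold change -0.01). Gene-level counts cannot separate the isoforms of these genes.

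The remaining paternally expressed genes were small positive values that did not pass. Zdbf2, a zinc finger gene, was at a log2 fold change of 0.31 (0.12 without KO replicate 1), with 99.9 to 171 CPM in KO, against 88.0 to 118 CPM in Control. Airn, the antisense RNA that silences Igf2r in most mouse tissues, was at 0.29, with 1.73 to 2.87 CPM in KO, against 1.33 to 2.94 CPM in Control. Nnat (neuronatin, a small membrane protein) was at 0.21, Impact (an inhibitor of the kinase GCN2) at 0.17, Zrsr1 (a splicing factor gene copied from Zrsr2) at 0.12, Peg13 (a noncoding RNA) at 0.10 and Nap1l5 (of the nucleosome assembly protein family) at 0.03. Among maternally expressed genes, Kcnk9, a two-pore potassium channel gene, was at 0.33 with 11.8 to 14.5 CPM in KO, against 8.16 to 13.7 CPM in Control. Blcap was at 0.14, Commd1 at 0.10, Trappc9 (a vesicle tethering factor) at 0.04 and Igf2r (the receptor that clears IGF2) at -0.11. Zrsr1 lies within Commd1 on the opposite strand with 412 shared exon bases, so reads of this pair can be mixed. Nnat lies within Blcap and Nap1l5 within Herc3 on the opposite strand, and Peg13 within Trappc9 on the same strand. These pairs share 0 exon bases in GENCODE M21, which need not be the annotation used for counting. How far their reads are mixed is therefore uncertain.

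Paternally and maternally expressed genes were then set side by side. Of 23 paternally expressed genes tested 21 were positive, 1 rose and 4 had no overlap between groups, with a median log2 fold change of 0.29 and a range of -1.03 to 1.02. Of 15 maternally expressed genes 12 were positive, 0 passed and 0 were free of overlap, with a median of 0.12 and a range of -0.20 to 1.17. Over all genes tested 53.8% were positive, 0.194% were called higher and 3.01% had every KO library above every Control library. The difference between the classes was not tested, because genes of a cluster are not independent. In the median over genes, KO replicates 1 to 4 were 0.29, 0.20, 0.37 and 0.10 (log2 CPM) above the Control mean for paternally expressed genes, and 0.21, 0.17, 0.14 and 0.10 above it for maternally expressed ones. Control replicates 1 to 4 were at 0.01, -0.01, 0.14 and -0.16 for paternally and 0.00, 0.09, 0.13 and -0.16 for maternally expressed genes. Control replicate 3 thus lay above KO replicate 4 in both classes, and the groups overlapped. Over all genes tested the same median was between -0.01 and 0.02 in every library. The 44 genes together took 1.01% to 1.13% of gene counts in KO and 0.936% to 1.004% in Control.

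**Figure D3:**
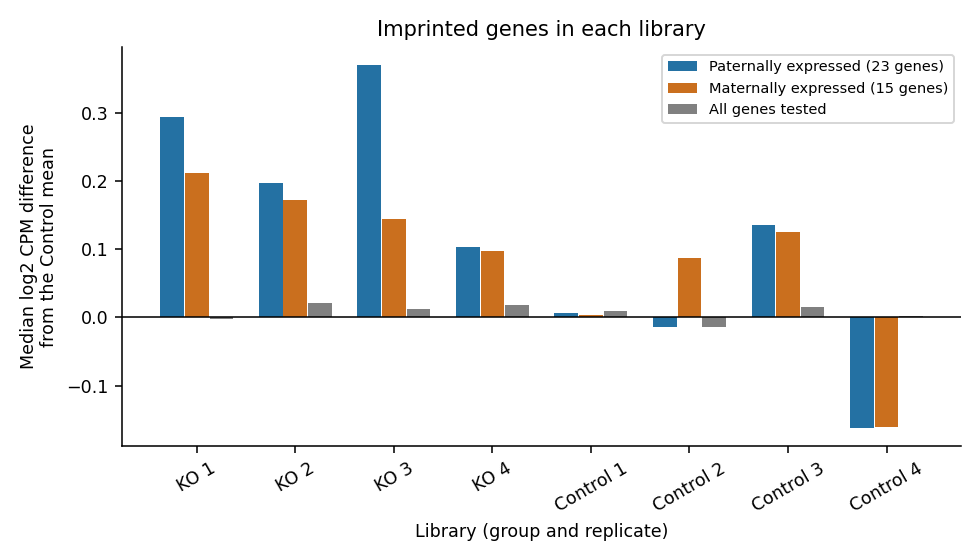
Median difference of log2 CPM from the Control mean (vertical axis) in each library, for 23 paternally expressed genes, 15 maternally expressed genes and all genes tested. All 4 KO libraries are above 0 for both classes, and KO replicate 4, at 0.10, lies below Control replicate 3, at 0.14, for the paternally expressed genes.

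Ratios of neighbours classed with opposite parental expression do not depend on library scaling and were compared in 10 gene pairs of shared domains. An 11th pair, Igf2 over H19, could not be used because H19 was near 0. In Peg3 over Zim1 the log2 ratio of counts was 5.45, 4.67, 4.67 and 5.09 in KO replicates 1 to 4, against 4.47, 3.96, 4.38 and 4.53 in Control. The groups did not overlap (means 4.97 ± 0.376 in KO and 4.34 ± 0.257 in Control, SD, n = 4 each, difference 0.63, SE 0.23). The exact two-sided permutation p was 0.0286, the smallest that 4 against 4 allows, and 0.190 after adjustment over the 10 pairs. In Dlk1 over Meg3 the log2 ratio was 1.66, 1.004, 1.10 and 0.73 in KO, against 0.33, 0.40, 0.998 and 0.40 in Control, with Control replicate 3 inside the KO range (difference 0.59, SE 0.25, exact permutation p = 0.0571, adjusted p = 0.190). In Snrpn over Ube3a it was -4.06, -2.98, -3.43 and -3.59 in KO, against -2.91, -2.73, -3.19 and -2.85 in Control, so the ratio leaned the other way (difference -0.59, SE 0.24, exact permutation p = 0.0571, adjusted p = 0.190). The other 7 pairs had differences of -0.10 (Kcnq1ot1 over Cdkn1c) to 0.45 (Peg10 over Casd1) and adjusted exact permutation p of 0.286 or more. None of the 10 passed after adjustment, which this design put out of reach for few pairs. A single fully separated pair could reach an adjusted p of only 0.286, and 6 such pairs would be needed to pass 0.05.

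**Figure D4:**
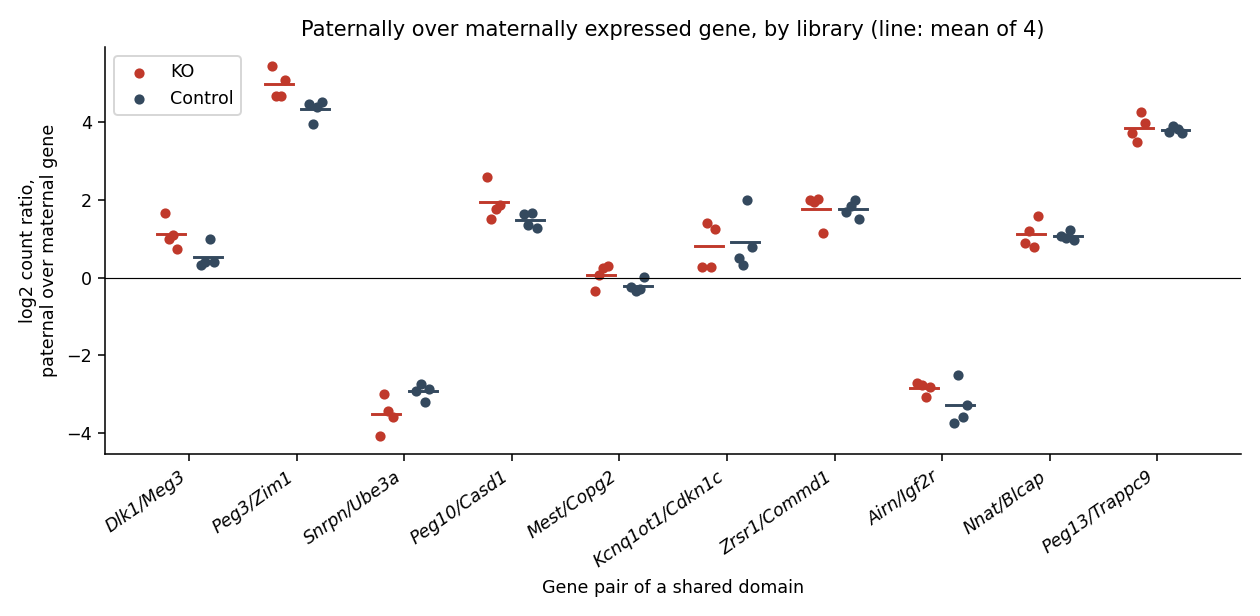
Log2 ratio of counts of the paternally over the maternally expressed gene (vertical axis) in 10 pairs of shared domains, for 4 KO and 4 Control libraries with a line at each mean. The KO and Control points are apart in Peg3/Zim1, at 4.67 to 5.45 in KO and 3.96 to 4.53 in Control, and overlap in the other 9 pairs.

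Marker lists of the cell types the dissection could hold were set beside these values. All 14 oligodendrocyte markers had negative fold changes, 1 of which fell (Cldn11, a myelin tight junction gene, with 27.99 ± 7.55 CPM in KO and 49.2 ± 5.67 CPM in Control, edgeR adjusted p = 0.0375), and they summed to 1784 to 3269 CPM in KO, against 2795 to 3579 CPM in Control. All 8 markers of oligodendrocyte precursors were negative (182 to 262 CPM in KO, 262 to 301 CPM in Control), as were 10 of 11 microglial markers (24.4 to 44.4 CPM in KO, 24.5 to 69.9 CPM in Control) and 7 of 8 ependymal and tanycyte markers (26.2 to 41.0 CPM in KO, 38.1 to 57.8 CPM in Control). Astrocyte markers were negative in 5 of 9 cases (1255 to 1701 CPM in KO, 1292 to 1703 CPM in Control), and endothelial and mural markers in 6 of 10 (9.13 to 24.5 CPM in KO, 10.5 to 38.5 CPM in Control). Neuronal markers were positive in 8 of 10 cases (12957 to 17184 CPM in KO, 12768 to 14881 CPM in Control). Otp-lineage transcription factors were positive in 6 of 6 (229.7 to 362 CPM in KO, 224 to 292 CPM in Control). The median log2 fold change was 0.12 for neuronal markers and 0.44 for Otp-lineage factors, against 0.21 for the imprinted genes. Most of the neuronal sum was Snap25 (10152 to 14344 CPM in KO, 9937 to 12077 CPM in Control). Most of the Otp-lineage sum was Arnt2 (165 to 271 CPM in KO, 174 to 232 CPM in Control, log2 fold change 0.10). No listed marker was at 0 in all libraries, and every summed list overlapped between groups. The smallest adjusted p of an exact permutation test over the 9 lists was 0.514 (n = 4 each), but 1 list with full separation could reach only 0.257, and 6 such lists would be needed to pass 0.05. The part of these cell types in the imprinted gene values was not tested beyond the following fit. With the mean level of the glial and vascular markers as a covariate, the median log2 fold change was 0.26 for paternally and 0.08 for maternally expressed genes. Plagl1 was then at 0.74 and no longer passed (edgeR adjusted p = 0.195), whereas Mest was at 0.72 and passed (edgeR adjusted p = 0.0471), and Igf2 moved to 1.41 without passing (edgeR adjusted p = 0.665).

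The level of the genes relative to each other was taken as CPM per kb of annotated exon. Nap1l5 was highest, at 834 ± 96.7 CPM per kb in KO and 818 ± 123 CPM per kb in Control (SD, n = 4 each). Gnas followed with 345 and 314, Nnat with 272 and 235, Impact with 109.8 and 97.7, Peg13 with 100.5 and 93.5 and Ndn with 90.3 and 68.0 CPM per kb in KO and Control. In Control, each of the first 4 was apart from the next except that Impact and Peg13 overlapped, and the ranges of Ndn, Blcap and Inpp5f overlapped in turn. From Mest down to Airn each gene overlapped the next in that order, so the order there is not resolved. Plagl1 was in 29th place in Control at 3.29 CPM per kb, against 6.14 CPM per kb in KO. Lengths came from an annotation that need not be the one used for counting, and a gene whose annotated exons are mostly unread, such as the 93092-base Kcnq1ot1, is set low by this measure.

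**Figure D5:**
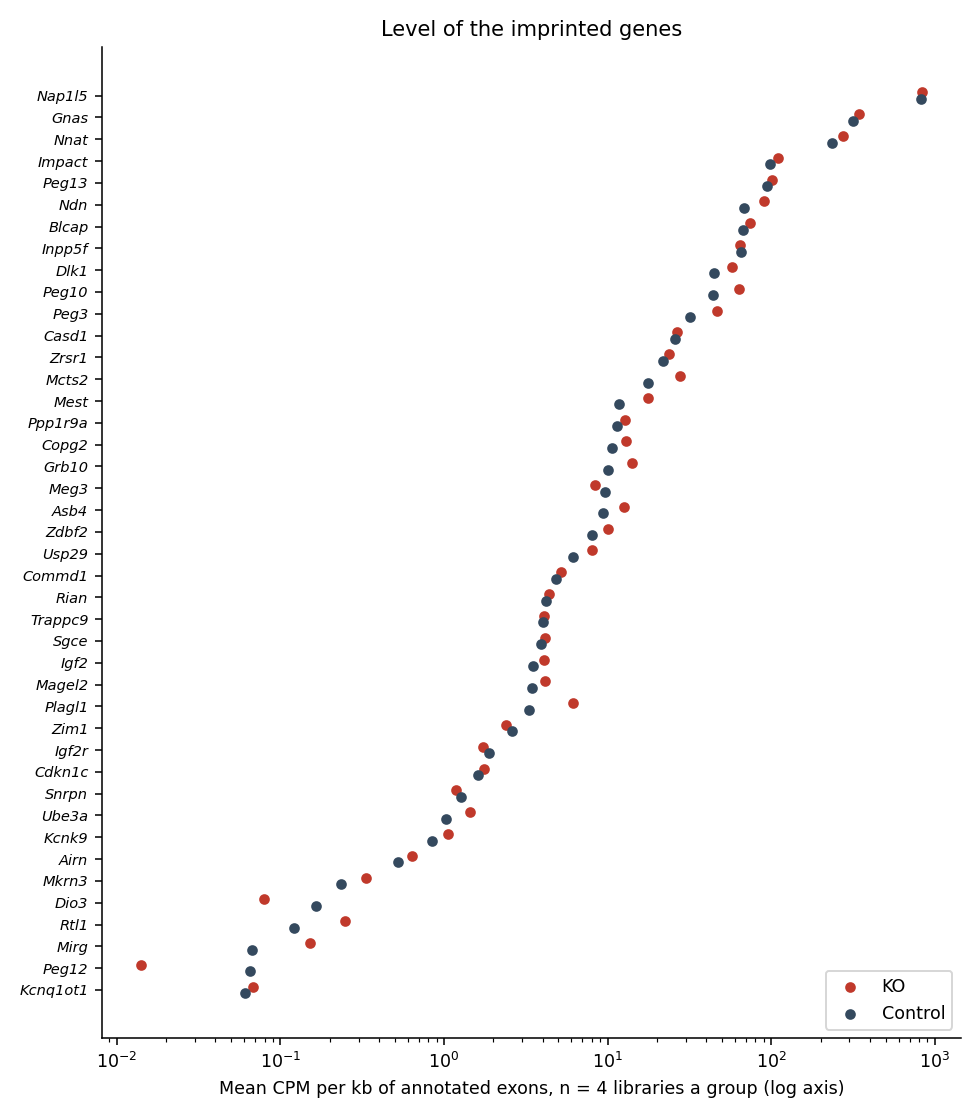
Mean CPM per kb of annotated exon on a log axis for 42 imprinted genes, KO drawn above Control (4 libraries each), in order of the Control level. Nap1l5 is highest, at 834 in KO and 818 in Control, and H19 and Phlda2 are left out because their counts were at or near 0.

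Further genes reported as imprinted in mouse, some only in placenta, were taken from a list of 40, of which 39 had a row and 31 were tested. Among them 0 rose and 1 fell, 20 were positive and 11 negative, and the median log2 fold change was 0.06. The gene that fell was Gatm, an enzyme of creatine synthesis imprinted in mouse placenta, with 108 ± 13.02 CPM in KO and 173 ± 17.3 CPM in Control (edgeR adjusted p = 0.0199, log2 fold change -0.68, SE 0.11). Calcr, the calcitonin receptor gene, which is maternally expressed in mouse brain, had 22.7 ± 2.38 CPM in KO and 13.9 ± 4.73 CPM in Control with no overlap (edgeR adjusted p = 0.156, log2 fold change 0.71, SE 0.25). Of 15 regulators that set or keep imprints 14 were tested, 10 were positive, 0 passed, and the median was 0.10. Trim28, the co-repressor that ZFP57 recruits to imprinted control regions, had 83.6 ± 10.6 CPM in KO and 60.2 ± 8.60 CPM in Control (edgeR adjusted p = 0.156, log2 fold change 0.47, SE 0.13). Smchd1, a chromatin protein needed at some imprinted clusters, had 20.2 ± 2.71 and 15.2 ± 1.24 CPM in KO and Control (edgeR adjusted p = 0.321, log2 fold change 0.41). Zfp57, chosen after its values were seen, had 5.97 ± 1.47 CPM in KO and 3.86 ± 0.359 CPM in Control (edgeR adjusted p = 0.346, log2 fold change 0.63). In these 3 of the 14 regulators tested every KO library was above every Control library, which held for 3.01% of all genes tested. Dppa3 had 0 in all libraries.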

How the data were processed

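The authors deposited raw read counts per gene symbol, 1 table per library, for which the submitters' processing notes name mm10, TopHat2 2.0.9, HTSeq and DESeq2. The sources used here give neither the annotation, the strand setting nor the HTSeq version. Per the labels' protocols, cDNA was amplified from 10 ng of RNA; molecular identifiers are not mentioned. The counter rows include reads with several alignments, which no gene received. Such records made up 69.2% to 81.9% of all records in KO libraries and 63.3% to 74.1% in Control libraries. The 92 ERCC rows, whose share differed between libraries, and 5 counter rows were left out.

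KO was compared with Control by the quasi-likelihood test of edgeR 4.0.16 (R 4.3.3), fitted robustly to the 8 libraries (genes kept by filterByExpr at a minimum count of 10 and total of 15, TMM factors, Benjamini-Hochberg adjustment over 15438 genes, threshold 0.05). SE is that of the difference of group means of log2 CPM. The script was tested on simulated data. Gene positions are from GENCODE M21 on GRCm38. Pair ratios used a pseudocount of 1 and exact permutation tests (scipy 1.17.1). Alternatives used DESeq2 1.42.0 and limma 3.58.1. Replicates are separate samples by label, but their origin from separate animals is not stated, so p-values measure only the spread between these samples, which may be technical. The 44 genes, their classes and the other lists were chosen with earlier results of these data known. Each of the 44 genes is named, with full statistics where it passed or its groups did not overlap. From the lists of further imprinted genes and of regulators, genes that passed and the 2 of smallest p were named, and markers are given by their lists.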

Additional observations from a re-analysis of the deposited data

Results flagged for a closer look

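A single library lay far from the other 3 of its group, by Dixon's test, in 4 of 82 groups of 4 libraries (41 genes in KO and in Control), and chance flags about 1 in 20. Peg3 was high in KO replicate 1, at 945 CPM against 479 to 559 CPM in the other KO libraries. Meg3 was low in the same library, at 95.8 CPM against 169 to 172 CPM in the others. Magel2 was low in Control replicate 4, at 10.3 CPM against 17.4 to 18.2 CPM. Gnas was high in Control replicate 4, at 3687 CPM against 3433 to 3465 CPM. KO replicate 1 was the highest of the 8 libraries for 16 of the 41 genes tested, KO replicates 2, 3 and 4 for 7, 8 and 3. It also had the lowest mean level of the glial and vascular markers. In log2 CPM centred over the 8 libraries, that level was -0.498, 0.121, -0.459 and 0.146 in KO replicates 1 to 4. In Control it was -0.159 to 0.584. Its part in these values was not tested beyond the covariate fit.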

How the results depend on the processing

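Over 10 other settings and 8 fits that left out 1 library, the median log2 fold change stayed positive for all imprinted genes and for both classes. Over these fits it was 0.25 to 0.35 for paternally and 0.08 to 0.14 for maternally expressed genes. Of the 41 genes, 31 to 35 were positive without 1 library and 32 with the glial and vascular covariate. With that covariate the log2 fold change was 0.30 for Peg3, 0.31 for Peg10, 0.12 for Usp29, 0.15 for Asb4, 0.08 for Zdbf2 and 0.03 for Magel2. Counting Grb10 and Inpp5f as paternal and Gnas as maternal gave 0.29 and 0.13. Imprinted genes called higher numbered 4 with DESeq2 and 0 to 1 without 1 library, and 1 in the other settings (Plagl1, except Mest with the covariate), with 0 called lower in each. Over all genes, DESeq2 called 119 higher and 81 lower, against 30 and 10 with edgeR. Genes called lower over all genes numbered 5 with total counts only, 6 with limma voom, 5 with the glial and vascular covariate and 22 with the replicate block. Leaving out 1 library gave 12 to 36 called higher and 2 to 17 lower, with 16 and 3 without Control replicate 1, 14 and 3 without Control replicate 2, 23 and 3 without Control replicate 3, 12 and 2 without Control replicate 4, 21 and 5 without KO replicate 2 and 36 and 17 without KO replicate 4. Some genes near 0, none called, changed sign: Nap1l5 with upper-quartile factors (-0.0013), and with the covariate Nap1l5 (-0.11), Snrpn (0.0093), Casd1 (-0.018), Zrsr1 (-0.0095) and Peg13 (-0.024). Of those that changed sign without 1 library, the ranges over these fits were, for log2 fold changes, -0.062 to 0.12 for Nap1l5, -0.028 to 0.11 for Trappc9, -0.015 to 0.11 for Rian, -0.091 to 0.30 for Kcnq1ot1, -0.29 to 0.79 for Mkrn3, -0.024 to 0.085 for Casd1, -0.14 to 0.32 for Cdkn1c, -0.018 to 0.17 for Peg13, -0.15 to 0.61 for Igf2, -0.092 to 0.055 for Inpp5f, -0.012 to 0.16 for Commd1, and for differences of log2 ratios -0.302 to 0.26 for Kcnq1ot1 over Cdkn1c, -0.0685 to 0.23 for Zrsr1 over Commd1, -0.0745 to 0.19 for Peg13 over Trappc9, -0.111 to 0.15 for Nnat over Blcap. The cause was not tested. Deviations from the group means in same-numbered KO and Control libraries correlated at r of -0.04 to 0.09. The labels state no pairing, and correlations near 0 do not settle whether the numbers pair the samples. With the replicate block 65 genes were called, Plagl1 among the imprinted genes. With 4 libraries a group and genes such as Dio3 at 2 to 24 counts, uncalled values do not show that levels were equal.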

Other observations

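The number of imprinted genes above the Control mean was 30, 33, 31 and 25 of 41 in KO replicates 1 to 4, and 21, 20, 27 and 11 of 41 in Control replicates 1 to 4. Split at the median of mean CPM over all libraries, the 21 more abundant genes (58.2 to 3685 CPM) had 19 positive fold changes and a median of 0.17, and the 20 less abundant genes (0.247 to 43.2 CPM) had 16 positive and a median of 0.24. Mas1, which Airn overlaps on the opposite strand, had 0.905 ± 0.515 CPM in KO and 2.28 ± 1.22 CPM in Control (edgeR adjusted p = 0.311, log2 fold change -1.34, SE 0.50).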
